A study of Mus musculus with 9 samples.

Results

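The 33 genes described here encode junction proteins, transporters, receptors, surface proteins and transcription factors of brain endothelial cells and the blood-brain barrier. They were taken as a list of symbols with earlier results of these cells known, and all 33 were found among the 23528 gene symbols of the molecules table. The table holds 9 single cells from the paraventricular nucleus, a cell group of the mouse hypothalamus, of C57Bl6/N mice 21 to 28 days old, and every cell is labelled secretagogin-positive. The cells are called by the numbers in their labels. Cells 4 and 7 were singled out because earlier work on this table had found endothelial markers in them, so what the list shows in these cells is a description. The labels name no animals, so all 9 cells count as 1 sample, and no test between cells was made.

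Endothelial cells line the blood vessels. In the brain they are sealed to each other by tight junctions and pass few molecules between cells, so glucose, amino acids, lactate and lipids cross by dedicated carriers while efflux pumps return many foreign compounds to the blood. Vascular endothelial growth factor and angiopoietin receptors mark the lineage, and SOX and ETS transcription factors hold its identity. Some carriers and surface proteins of the list are also used by astrocytes, tanycytes, oligodendrocytes, neurons or pericytes. For that reason 10 members (Bsg, Ly6e, Spock2, Tjp1, Slc2a1, Slc7a5, Slc16a1, Slco1c1, Pltp and Vtn) were kept apart from the 23 members that are mostly endothelial in brain.

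The cells differed in depth, from 1021 to 26466 gene molecules with a median of 9573. Cell 4 held 12024 gene molecules and cell 7 held 7160. Levels are given as molecules per 10000 gene molecules of the cell, with exact 95% Poisson intervals that cover counting error only. Where a gene had 0 molecules, the limit used was 3 molecules, which is 2.50 per 10000 in cell 4, 4.19 in cell 7, and 1.13 to 29.4 in the other 7 cells. Cells 1 and 6 were the shallowest, with 1021 and 3393 gene molecules. In cell 4, 30.3% of gene molecules lay in globin rows, which count Hba-a2 at more than 1 locus and may hold some reads more than once, and no other cell held any. Scgn, the secretagogin gene that gives the cells their label, was undetected in cells 4 and 7, but also in the shallow cells 1 and 6. Most of its 17 molecules came from cell 3, which held 11. Cell 8 held 3, while the count was only 1 for cells 2, 5 and 9. Cells 2, 3, 5, 8 and 9 were thus the cells with Scgn, and all of them were deeper than cell 7. With counts as low as 1, whether lack of Scgn molecules sets cells 4 and 7 apart cannot be told.

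The members were concentrated in cells 4 and 7. Cell 4 held 236 member molecules, or 196 per 10000 (interval 172 to 223). In cell 7 there were 134, or 187 per 10000 (interval 157 to 222). The other 7 cells held 0 to 20 each, with a median of 7.56 and a highest level of 23.6 per 10000, in cell 6. Cells 4 and 7 thus took 84.5% of the 438 member molecules, and their summed levels did not overlap those of the other 7 cells. Of the 33 members, 27 were detected in cell 4, where 10.2% of all symbols were, and 21 in cell 7, where 10.9% of all symbols were. Both cells shared 19 detected members, and 3.92% of all symbols were detected in both. Of these, 9 members were in no other cell, as were 0.366% of all symbols. The median member had 3 molecules in cell 4 and 3 in cell 7, against a median of 0 over all symbols in each. The other 7 cells had 0 to 6 members each, and the share of all symbols detected there ran from 2.10% in cell 1 to 23.5% in cell 5. In cells 5 and 8, 18.2% of the members were detected, where 23.5% and 17.5% of all symbols were. In cells 2, 3 and 6 the share of members was 9.09%, where 14.8%, 14.7% and 4.85% of all symbols were, and it was 9.09% in cell 9, where 2815 of the 23528 symbols were detected. Thinned to the 7160 molecules of cell 7, cell 4 would be expected to show 23.7 members, and cells 2, 3, 5, 8 and 9 between 2.24 and 4.91; cells 1 and 6 are too shallow for this.

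**Figure D1:**
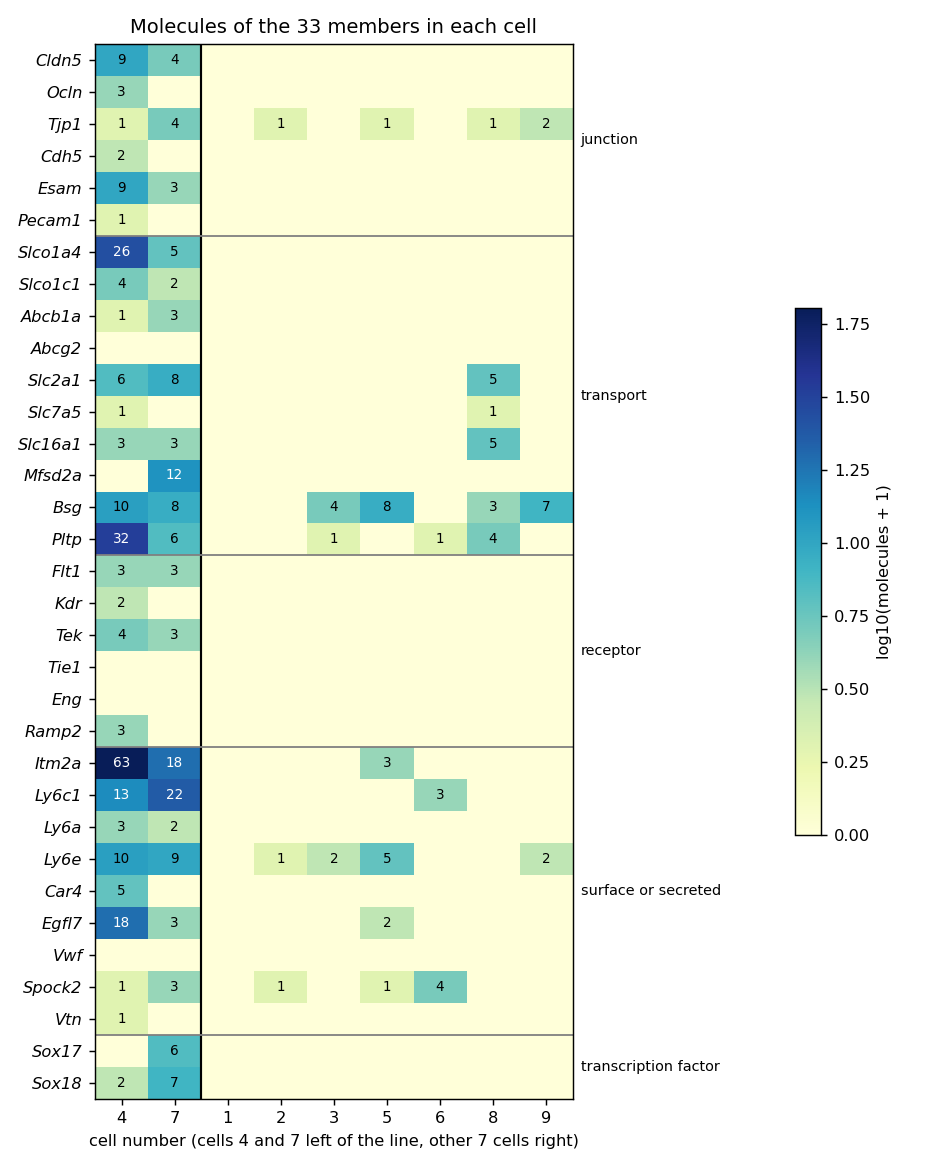
Molecules of each of the 33 members (rows, grouped by role) in each of the 9 cells (columns), with the number printed where it is above 0 and colour as log10(molecules + 1). Cells 4 and 7 hold 236 and 134 member molecules, and the other 7 cells hold 0 to 20 each.

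The separation was sharper for the 23 mostly endothelial members. They had 167 molecules in cell 4, or 139 per 10000 (interval 119 to 162), and 91 in cell 7, or 127 per 10000 (interval 102 to 156). Outside these cells they had 8 molecules in all, which were 3 of Itm2a and 2 of Egfl7 in cell 5, and 3 of Ly6c1 in cell 6. None of the 23 was detected in cells 1, 2, 3, 8 or 9. The 10 members that other brain cells also use had 69 molecules in cell 4 and 43 in cell 7, or 57.4 and 60.1 per 10000, against 0 to 14.7 per 10000 in the other 7 cells. Cells 4 and 7 held 97.0% of the molecules of the 23 members and 65.1% of those of the 10.

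**Figure D2:**
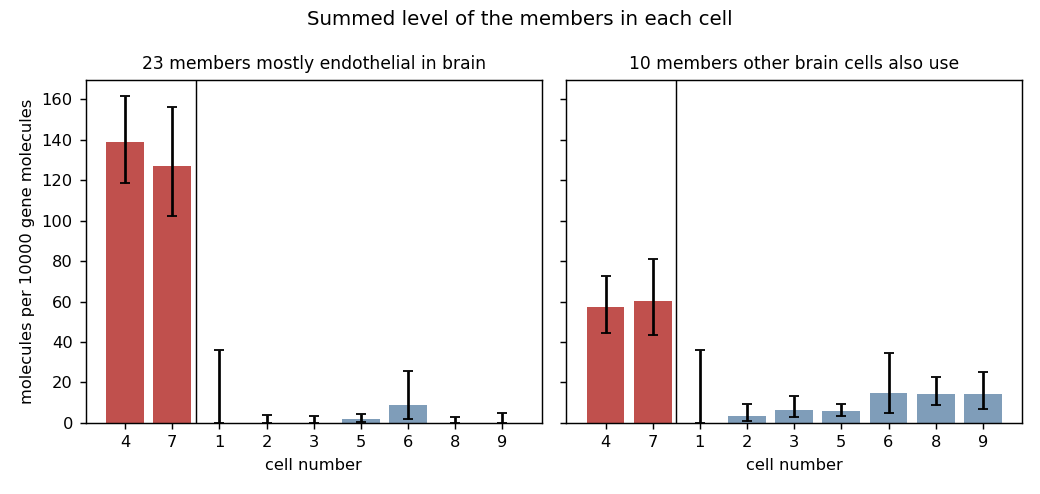
Summed molecules per 10000 gene molecules in each cell, for the 23 members that are mostly endothelial in brain (left) and the 10 that other brain cells also use (right). Bars are the levels of single cells and lines are exact 95% Poisson intervals. Cells 4 and 7 reach 139 and 127 on the left, where 5 of the other 7 cells stand at 0.

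For 15 members the level in cell 4 and in cell 7 was above the highest level of the other 7 cells, as it was for 0.820% of all symbols. In cell 4 alone 23 members stood above the other 7 cells (3.67% of all symbols), and in cell 7 alone 20 did (5.34% of all symbols). The 15 were Cldn5, Esam, Slco1a4, Slco1c1, Abcb1a, Slc2a1, Pltp, Flt1, Tek, Itm2a, Ly6c1, Ly6a, Ly6e, Egfl7 and Sox18. Since cells 4 and 7 were chosen on such genes, nothing was read from the count. The shallow cell 1 adds little to the count. Its limit of 29.4 per 10000 for a gene at 0 lies above all member levels in cells 4 and 7. The exceptions are Itm2a in cell 4 and Ly6c1 in cell 7. The limit of cell 6, 8.84, lies above the cell 7 levels of Cldn5, Esam, Slco1a4, Flt1 and Tek, among others. Abcb1a in cell 4 (0.832) was below the limits of all other 7 cells, the lowest being 1.13 in cell 5. Sox18 in cell 4 (1.66) was below all of them except that of cell 5. Slco1c1 and Ly6a in cell 7 (2.79 each) were below the limits of cells 2, 3 and 9 (3.13, 2.80 and 3.83). So were Flt1 and Ly6a in cell 4 (2.50 each). Slco1c1 and Tek in cell 4 (3.33 each) were below the limit of cell 9. For such genes a count of 0 does not show a lower level. Detected members were seldom single molecules. In cell 7 all 21 had at least 2 molecules, as had 5.08% of all symbols, although 53.5% of all detected symbols in that cell had exactly 1. In cell 4, 21 of the 27 had at least 2 molecules, as had 4.58% of all symbols, and 6 had exactly 1, against 55.1% of all detected symbols.

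The stretch of genome at the start of 5 members is shown as context for genes that were detected together or apart in these cells. Cldn5, Slco1a4 and Tek were detected in cells 4 and 7 and in no other cell, Itm2a gave 81 molecules in these cells, and Mfsd2a was detected in cell 7 alone. The sequences are from RefSeq (GRCm38.p6) and run 5′ to 3′ on the gene's strand from 250 bases before to 50 after the start. Capitals mark the ETS letters AGGAAG and the SOX letters ACAATG and ACAAAG, searched on both strands.
Cldn5: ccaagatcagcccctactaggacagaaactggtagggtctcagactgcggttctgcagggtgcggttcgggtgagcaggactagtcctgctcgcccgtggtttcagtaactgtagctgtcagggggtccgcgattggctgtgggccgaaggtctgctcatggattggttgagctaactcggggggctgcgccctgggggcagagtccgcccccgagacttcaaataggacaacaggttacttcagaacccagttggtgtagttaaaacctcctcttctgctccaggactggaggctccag
Slco1a4: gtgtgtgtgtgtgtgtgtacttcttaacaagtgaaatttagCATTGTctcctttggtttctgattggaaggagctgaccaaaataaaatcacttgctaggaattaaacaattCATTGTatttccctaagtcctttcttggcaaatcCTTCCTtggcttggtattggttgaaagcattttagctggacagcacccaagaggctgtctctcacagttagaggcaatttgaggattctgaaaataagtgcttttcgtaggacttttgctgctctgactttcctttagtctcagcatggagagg
Tek: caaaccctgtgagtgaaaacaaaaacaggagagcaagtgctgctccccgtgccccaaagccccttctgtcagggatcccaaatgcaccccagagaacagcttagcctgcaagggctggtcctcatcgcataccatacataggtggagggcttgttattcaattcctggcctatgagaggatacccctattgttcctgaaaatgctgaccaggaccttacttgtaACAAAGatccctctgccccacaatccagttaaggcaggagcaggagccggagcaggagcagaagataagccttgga
Itm2a: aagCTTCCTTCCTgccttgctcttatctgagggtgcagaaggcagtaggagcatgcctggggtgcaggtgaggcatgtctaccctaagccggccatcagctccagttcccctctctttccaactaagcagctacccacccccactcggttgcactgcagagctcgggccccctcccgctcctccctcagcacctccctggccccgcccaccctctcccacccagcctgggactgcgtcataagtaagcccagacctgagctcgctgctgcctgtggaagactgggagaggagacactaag
Mfsd2a: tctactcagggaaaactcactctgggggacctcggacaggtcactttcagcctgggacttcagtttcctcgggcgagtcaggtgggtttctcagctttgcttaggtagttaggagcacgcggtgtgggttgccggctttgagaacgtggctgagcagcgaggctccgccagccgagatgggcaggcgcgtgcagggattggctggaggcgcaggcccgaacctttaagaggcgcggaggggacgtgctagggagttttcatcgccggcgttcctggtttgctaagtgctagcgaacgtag
The windows lie at chr16:18776597-18776896 (plus strand) for Cldn5, chr6:141856171-141856470 (minus strand) for Slco1a4, chr4:94739039-94739338 (plus strand) for Tek, chrX:107403311-107403610 (minus strand) for Itm2a and chr4:122961139-122961438 (minus strand) for Mfsd2a.
Slco1a4 holds CATTGT at 2 places and CTTCCT at 1, which are ACAATG and AGGAAG on the other strand. Tek holds ACAAAG at 1 place, and Itm2a holds 2 matches of AGGAAG on the other strand that overlap. Cldn5 and Mfsd2a hold none of these letters in the window. Of 32851 windows of the same length, 35.4% hold AGGAAG, 12.6% hold ACAATG and 18.7% hold ACAAAG on either strand. Windows were found for 22 of the 33 members, 28 windows in all, of which 13, 2 and 7 hold these letters. The matches are descriptions of sequence and not sites.

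All 6 junction and adhesion members were detected in cell 4, and 3 of them in cell 7, where 10.2% and 10.9% of all symbols were. Cldn5 encodes claudin-5, the main claudin of the brain endothelial tight junction, and lies on chromosome 16 at 18776847 to 18778262 (plus strand, GRCm38/mm10). It had 9 molecules in cell 4, or 7.49 per 10000 (interval 3.42 to 14.2), and 4 in cell 7, or 5.59 per 10000 (interval 1.52 to 14.3). The other 7 cells held none. Esam, an endothelial cell adhesion molecule on chromosome 9 at 37528078 to 37538319 (plus strand), had 9 molecules in cell 4 and 3 in cell 7, and was seen nowhere else. These genes were thus detected in the same pair of cells. Tjp1, which encodes the junction scaffold ZO-1 used by many cell types, had 1 molecule in cell 4 and 4 in cell 7, against 1 each in cells 2, 5 and 8, 2 in cell 9 and 0 in cells 1, 3 and 6. Its level in cell 4 lay below those of cells 2 and 9, so Tjp1 did not set both cells apart. Ocln, which encodes the tight junction protein occludin, had 3 molecules in cell 4. Cdh5, the cadherin of endothelial adherens junctions, had 2 there, and Pecam1, an adhesion molecule between endothelial cells, had 1. None of these 3 genes was detected in any other cell, cell 7 included, where the limit for a count of 0 was 4.19 per 10000, above the levels of all 3 in cell 4.

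Of the 10 transport members, 8 were detected in cell 4 and 8 in cell 7, where 10.2% and 10.9% of all symbols were. In both cells 7 of them were detected, as were 3.92% of all symbols. Slco1a4, on chromosome 6 at 141805440 to 141856199 (minus strand), encodes an organic anion transporter of brain capillaries. It had 26 molecules in cell 4, or 21.6 per 10000 (interval 14.1 to 31.7), and 5 in cell 7, or 6.98 per 10000 (interval 2.27 to 16.3), while the rest held none. The related Slco1c1, which carries thyroxine, had 4 molecules in cell 4 and 2 in cell 7 and none elsewhere. Abcb1a, which encodes the efflux pump P-glycoprotein, had 1 molecule in cell 4 and 3 in cell 7 and none elsewhere. Abcg2, another efflux pump of the barrier, had no molecule in any cell.

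Mfsd2a, the carrier of lysophosphatidylcholine with docosahexaenoic acid, lies on chromosome 4 at 122946850 to 122961188 (minus strand). It had no molecule in cell 4 and 12 in cell 7, or 16.8 per 10000 (interval 8.66 to 29.3), while the rest held none. With cell 4 set at the limit of 3 molecules, its level was 6.72-fold lower in cell 4 than in cell 7. That fold was 4.68 with globin genes left out of the totals and 3.78 per spike-in molecule. These folds take the 12 molecules of cell 7 as exact, so they are not lower bounds. The interval of cell 7 lay above the limit of cell 4.

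Slc2a1, which encodes the glucose transporter GLUT1, had 6 molecules in cell 4 and 8 in cell 7, against 5 in cell 8 and 0 in the other 6 cells. Slc16a1, which encodes the lactate carrier MCT1, had 3 molecules in cell 4 and 3 in cell 7, against 5 in cell 8 and 0 in the other 6 cells. Cell 8 therefore held both carriers, at 3.79 per 10000 each, and its Slc16a1 level lay between those of cell 4 (2.50) and cell 7 (4.19). The Slc2a1 intervals of cells 4, 7 and 8 also overlapped. Slc7a5, the large neutral amino acid transporter, had 1 molecule each in cells 4 and 8. Cell 8 also held 117 molecules of ependymal and tanycyte markers and 30 of astrocyte markers, and their part in these counts was not tested.

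Bsg encodes basigin, which escorts MCT1 to the membrane and is made by many cell types. It had 10 molecules in cell 4 and 8 in cell 7, against 4, 8, 3 and 7 in cells 3, 5, 8 and 9 and none in cells 1, 2 and 6. Its level of 8.94 per 10000 in cell 9 lay between the 8.32 of cell 4 and the 11.2 of cell 7. Pltp, which encodes phospholipid transfer protein, had 32 molecules in cell 4, or 26.6 per 10000 (interval 18.2 to 37.6), and 6 in cell 7, or 8.38 per 10000 (interval 3.08 to 18.2). Elsewhere Pltp had 4 molecules in cell 8, 1 each in cells 3 and 6 and none in cells 1, 2, 5 and 9. Its level in cell 4 thus stood above the level seen in every other cell, although the shallow cell 1 had a limit of 29.4 per 10000. The interval of cell 7 overlapped those of cells 3, 6 and 8.

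Among the 6 receptor members, 4 were detected in cell 4 and 2 in cell 7, where 10.2% and 10.9% of all symbols were. The other 7 cells had 0, where 2.10% to 23.5% of all symbols were detected. Flt1, which encodes a receptor for vascular endothelial growth factor, had 3 molecules in cell 4 and 3 in cell 7. Tek encodes TIE2, the angiopoietin receptor, and had 4 molecules in cell 4 and 3 in cell 7. Kdr, which encodes the main signalling receptor for vascular endothelial growth factor, had 2 molecules in cell 4 only, and Ramp2, a partner of the adrenomedullin receptor, had 3 there. Tie1, the partner receptor of TIE2, and Eng, which encodes the transforming growth factor beta co-receptor endoglin, had none in any cell. The receptor molecules summed to 12 in cell 4, or 9.98 per 10000 (interval 5.16 to 17.4), and to 6 in cell 7, or 8.38 per 10000 (interval 3.08 to 18.2). In the other 7 cells the counts of 0 allow up to 1.13 per 10000 in cell 5 and 29.4 in cell 1.

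The 9 surface and secreted members gave 114 molecules in cell 4 and 57 in cell 7. Itm2a, an integral membrane protein gene that is abundant in brain endothelium, lies on chromosome X at 107397099 to 107403376 (minus strand). It had 63 molecules in cell 4, or 52.4 per 10000 (interval 40.3 to 67.0), and 18 in cell 7, or 25.1 per 10000 (interval 14.9 to 39.7). The other 7 cells had 3 molecules in cell 5, or 1.13 per 10000, and none in the rest. Ly6c1, a surface antigen gene of brain endothelium on chromosome 15 at 75044018 to 75048830 (minus strand), had 13 molecules in cell 4, or 10.8 per 10000 (interval 5.76 to 18.5). In cell 7 it had 22, or 30.7 per 10000 (interval 19.3 to 46.5). Cell 6 held 3 Ly6c1 molecules, which at its depth is 8.84 per 10000 (interval 1.82 to 25.8), and the remaining cells held none. The Ly6c1 intervals of cells 4 and 7 both overlapped that of cell 6. The neighbouring Ly6a, which encodes the antigen Sca-1, had 3 molecules in cell 4 and 2 in cell 7 and none elsewhere.

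Ly6e, a family member made by many cell types, had 10 molecules in cell 4 and 9 in cell 7, against 1, 2, 5 and 2 in cells 2, 3, 5 and 9 and none in cells 1, 6 and 8. These are 8.32 and 12.6 per 10000 in cells 4 and 7, against at most 2.56 in the others. Egfl7, an endothelial secreted factor whose gene hosts the endothelial microRNA miR-126, had 18 molecules in cell 4 and 3 in cell 7, against 2 in cell 5 and none elsewhere. Spock2, a secreted proteoglycan gene that neurons also use, had 1 molecule in cell 4 and 3 in cell 7, against 4 in cell 6, 1 each in cells 2 and 5 and none in cells 1, 3, 8 and 9. Its highest level, 11.8 per 10000 (interval 3.21 to 30.2), lay in cell 6, so Spock2 did not set cells 4 and 7 apart. Car4, a membrane carbonic anhydrase of capillaries, had 5 molecules and Vtn, which encodes vitronectin and is a pericyte gene in brain, had 1, both in cell 4 alone. Vwf, which encodes von Willebrand factor, had no molecule in any cell.

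The members for transcription factors were detected only in cells 4 and 7. Sox17, a factor of arterial endothelium, had no molecule in cell 4 and 6 in cell 7, and Sox18, a factor of the same family, had 2 in cell 4 and 7 in cell 7. Together they had 1.66 per 10000 in cell 4 (interval 0.201 to 6.01) and 18.2 per 10000 in cell 7 (interval 9.67 to 31.0). The other 7 cells held neither gene.

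As a share of gene molecules, the summed member levels of cells 4 and 7 had overlapping intervals, while some single members differed beyond counting error. The ratio of cell 4 over cell 7 was 1.05 for all 33 members together (interval 0.845 to 1.31), as a share of gene molecules. It was 1.50 (interval 1.21 to 1.87) when the globin genes were left out of the totals, and 1.86 (interval 1.50 to 2.32) per spike-in molecule. Cell 4 over cell 7 gave ratios for 17 members with at least 5 molecules in the pair, and the intervals were not adjusted for their number. The interval lay above 1 for 4 of them, namely Egfl7 (3.57, interval 1.04 to 18.9), Pltp (3.18, interval 1.31 to 9.29), Slco1a4 (3.10, interval 1.17 to 10.3) and Itm2a (2.08, interval 1.22 to 3.74). These 4 also had intervals above 1 under both other scalings. Below 1 lay Ly6c1 (0.352, interval 0.163 to 0.730) and Sox18 (0.170, interval 0.0172 to 0.894), whose intervals reached 1.05 and 1.28 without the globin genes. The other 11 intervals held 1, among them those of Cldn5, Esam, Tek and Flt1, and of these 11 only the intervals of Slc2a1, Tjp1 and Ly6e end below the ratio seen for Itm2a. With cell 4 set at 3 molecules, Sox17 was 3.36-fold lower there than in cell 7, 2.34-fold without globins and 1.89-fold per spike-in molecule. These folds take the 6 molecules of cell 7 as exact, so they are not lower bounds. The Sox17 interval of cell 7 (3.08 to 18.2 per 10000) began close to the limit of 2.50 in cell 4. The Sox17 and Sox18 sum had a ratio of 0.0916 (interval 0.0100 to 0.405), and its interval stayed below 1 without globins (0.131, interval 0.0144 to 0.580) and per spike-in molecule (0.163, interval 0.0178 to 0.718). Each ratio compares 2 cells and no condition.

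**Figure D3:**
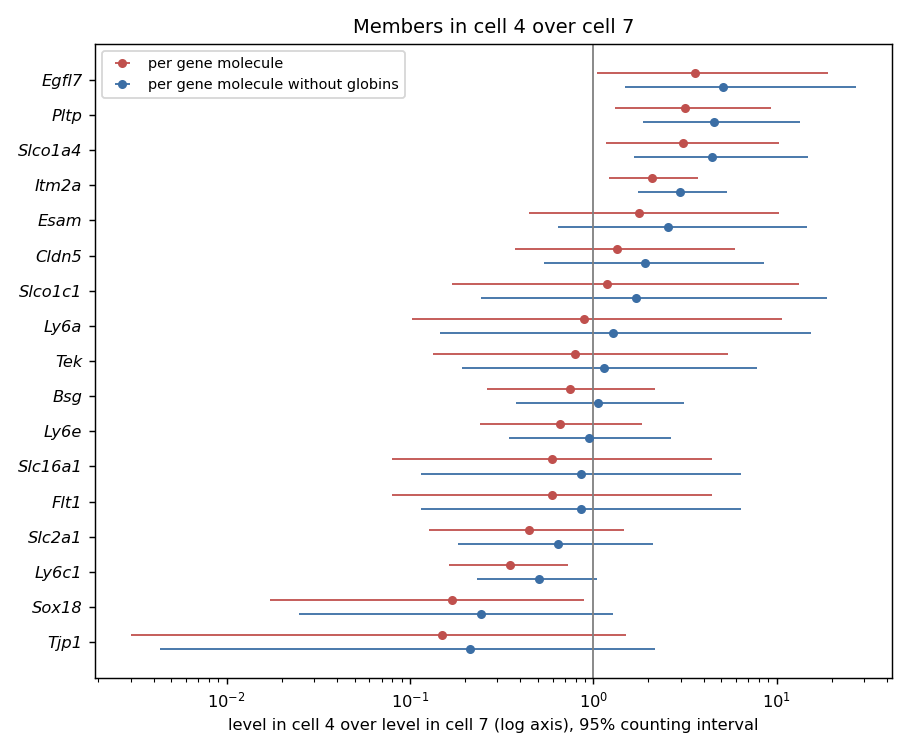
Level in cell 4 over level in cell 7 on a log axis for the 17 members with molecules in both and at least 5 in the pair, with exact 95% counting intervals. Red points use all gene molecules and blue points leave out globin genes, and Egfl7, Pltp, Slco1a4 and Itm2a lie to the right of 1 in both.

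Some members share sequence with other genes, so their counts are less certain. Of the windows of 30 bases in Ly6c1 transcripts, 47.6% also occur in other genes and 33.9% in Ly6c2, which had 0 molecules in cell 4 and 3 in cell 7. For Ly6a the share was 32.8%, with 22.2% in Ly6c1. For Abcb1a 22.0% of windows occur in Abcb1b, which had 0 molecules in all cells, and for Ramp2 31.8% occur in the overlapping Vps25, which had 0 in cells 4 and 7. For Egfl7 and Slco1a4 the shares were 6.71% and 5.37%, and every other member was under 5%. Pltp overlaps exons of Ctsa on the opposite strand, which had 2 molecules in cell 4 and 0 in cell 7.

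Beyond the members, 47 other endothelial genes were counted. Of these, 23 were detected in cell 4 (48.9%) and 24 in cell 7 (51.1%), where 10.2% and 10.9% of all symbols were. Both cells held 13 of them, and 3.92% of all symbols were detected in both. The other 7 cells had 0 to 7. The highest share there was 14.9% in cell 8, where 17.5% of all symbols were. Their molecules summed to 57.4 per 10000 in cell 4 (interval 44.6 to 72.6) and 120 per 10000 in cell 7 (interval 96.1 to 148), against at most 27.2 in the other 7 cells. The ratio of cell 4 over cell 7 for this list was 0.478 (interval 0.343 to 0.664) as a share of gene molecules, 0.685 (interval 0.492 to 0.951) without globin genes, and 0.848 (interval 0.609 to 1.18) per spike-in molecule. Ptprb, an endothelial receptor phosphatase, had 7 molecules in cell 4 and 5 in cell 7, and no other cell held it. Ifitm3, an interferon-induced membrane protein, had 8 molecules in cell 4 and 13 in cell 7, against 1 in cell 8. Podxl, which encodes podocalyxin, and Gkn3, a marker of arterial endothelium in mouse brain, each had 0 molecules in cell 4 and 8 in cell 7 and none elsewhere. Bmx, another arterial gene that was picked out after its values were seen, had 0 in cell 4 and 4 in cell 7 and none elsewhere. Other arterial or Notch pathway genes of the list were mixed. Dll4 had none in any cell, and Notch4 had 1 in cell 4 and 0 in cell 7. Hey1 had 2 each in cells 7 and 8, and Efnb2 had 2 in cell 7 and 1 in cell 3. Notch1 and Jag1 had 2 each in cell 7 alone. Klf4 and Cd200 were also detected in several of the other cells. Klf4, an early response factor, had 4.16 molecules per 10000 in cell 4 and 18.2 in cell 7, against 8.36, 3.73 and 2.28 per 10000 in cells 2, 3 and 8 and none elsewhere. Cd200, a surface protein of neurons and endothelium, had 2.50 per 10000 in cell 4 and 9.78 in cell 7. It had 9.40, 8.39, 5.67, 2.95 and 1.28 per 10000 in cells 2, 3, 5, 6 and 9, and none in cells 1 and 8. The Klf4 level was highest in cell 7. The Cd200 levels of cells 7 and 2 were close, from 7 and 9 molecules, and are not ranked. Cell 4 was below cell 2 for both genes.

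Of 48 other barrier genes, 20 were detected in cell 4 (41.7%) and 19 in cell 7 (39.6%), where 10.2% and 10.9% of all symbols were. The other 7 cells had 1 to 14. Their shares ran from 2.08% in cell 1 to 29.2% in cell 5, where 2.10% and 23.5% of all symbols were detected. In cells 2, 3, 6 and 8 the shares were 20.8%, 12.5%, 10.4% and 18.8%, where 14.8%, 14.7%, 4.85% and 17.5% of all symbols were. The share was 4.17% in cell 9, where 2815 of the 23528 symbols were. Their sum was 59.0 per 10000 in cell 4 (interval 46.1 to 74.5) and 50.3 per 10000 in cell 7 (interval 35.2 to 69.6), against 5.59 to 20.9 in the other 7 cells. Slc6a6, the taurine transporter, had 12 molecules in cell 4 and 7 in cell 7, against 4 in cell 5. Palmd had 8 in cell 4 and 2 in cell 7, against 1 in cell 3. Slc40a1, the iron exporter ferroportin, had 7 molecules and Slco2b1, an organic anion transporter, had 6, both in cell 4 alone. Itih5 had 6 molecules in cell 4 and 1 in cell 7, against 5 in cell 8. Ctnnb1, the beta-catenin gene that most cells express, had 4 in cell 4 and 3 in cell 7, against 0 to 6 in the other 7 cells.

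Markers of other cell types were present beside the members in cell 4 and in cell 7. The 15 neuron markers had 10 molecules in cell 4, or 8.32 per 10000 (interval 3.99 to 15.3). They had 21 in cell 7, or 29.3 per 10000 (interval 18.2 to 44.8). The other 7 cells ran from 9.79, which is 1 molecule in the shallow cell 1, to 104 in cell 5. Cell 8, at 21.3, also lay below cell 7. In cell 7 the highest were Elavl4 with 7, Celf4 with 4 and Syn1 with 3. Stmn2 had 2 there, and Snap25, Syt1, Eno2, Nefm and Uchl1 had 1 each. The remaining neuron markers, Stmn3, Rbfox3, Tubb3, Gap43, Nefl and Map2, had none in cell 7. Blood markers, 4 of 7 detected, had 2507 molecules in cell 4 and 0 in cell 7. Mural markers, which label pericytes and smooth muscle, had 9 molecules in cell 4, 8 of them from the pericyte gene Rgs5, and 2 in cell 7, both from Cald1. Of the 14 mural genes, 10 had no molecule in any cell, namely Pdgfrb, Kcnj8, Abcc9, Higd1b, Ndufa4l2, Cspg4, Acta2, Myh11, Des and Mylk. Tagln had 2 molecules in cell 6 and Anpep 1 in cell 8, and neither was detected in cells 4 and 7. Astrocyte markers had 4 molecules in cell 4 and 0 in cell 7, while fibroblast and microglial markers had 0 in both. Oligodendrocyte markers had 1 molecule each in cells 4 and 7, against 442 in cell 5. Whether a chamber held more than 1 cell or RNA from elsewhere was not tested.

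**Figure D4:**
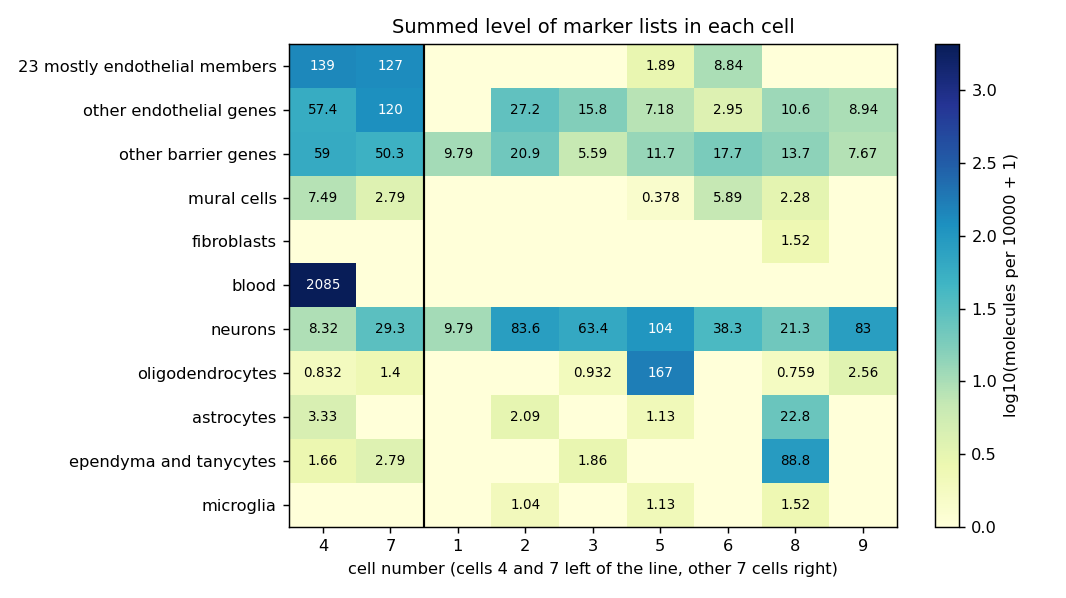
Summed molecules per 10000 gene molecules for 11 gene lists (rows) in each cell (columns), with values printed where above 0 and colour as log10(level + 1). The 23 mostly endothelial members reach 139 and 127 in cells 4 and 7, where neuron markers are at 8.32 and 29.3, and blood markers are seen in cell 4 alone.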

How the data were processed

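Single cells from the paraventricular nucleus were captured on a Fluidigm C1 chip and their cDNA was amplified and tagmented, per the labels' protocols. The single table the authors deposited holds counts, which they named molecules, with 24378 gene rows and 92 spike-in rows. The submitters' processing notes name mm10 and Bowtie. For versions, duplicate collapsing and the strand setting, nothing was stated in the sources used here. Columns were matched to cells by number, and 0 columns were left over.

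The largest row of a symbol with several loci was used, and no member had more than 1 row. Levels are counts per 10000 gene molecules. Intervals are exact 95% Poisson intervals or, for ratios, exact conditional binomial intervals. PCR and counting errors beyond sampling are not covered. The intervals, the thinning formula and the count of members above the other cells were tested on simulated data; the other steps were not. The 9 cells are 1 sample, so no p-value was computed. Doublets were not called. The members, the lists and the rules were chosen with earlier results of these data known. Members with at least 10 molecules are given in every cell. From the other endothelial and barrier lists, up to 6 genes with the most molecules in cells 4 and 7 are named. Bmx and the arterial or Notch pathway genes given with it are outside this rule and were added after their values were seen. All 14 mural and 15 neuron markers are named. Outside the lists, up to 12 genes with at least 2 molecules in cells 4 and 7 and none elsewhere are named. Positions and transcripts are from GENCODE M21 (GRCm38) and promoters from RefSeq. A planned comparison of protein sequences was not made. Alternatives were other detection limits, totals, thinning, member subsets and leaving out cells; those leaving out cells 5 and 8, 1 and 6, 4, or 7 were chosen after seeing the data. Software was Python 3.11.15 with scipy 1.17.1, pandas 2.3.3, matplotlib 3.10.9 and numpy 2.4.6.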

Additional observations from a re-analysis of the deposited data

Results flagged for a closer look

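A single cell stood apart for 37 of 73 levels looked at. For these, the gap to the nearest cell, as a share of the whole range, was above Dixon's 95% critical value. The usual rate of about 1 in 20 groups past that value by chance does not hold here, because many levels are 0, cells 4 and 7 were chosen on endothelial genes, and some genes were named for their counts in these cells. The number past the value is therefore a description, and no excess over chance is read from it. A gene detected in a single cell always has a gap of 1, as 16 of the 37 levels did. Cell 4 stood apart in this way, with a gap of 1, for Ocln, Cdh5, Pecam1, Kdr, Ramp2, Car4, Vtn, Slc40a1, Slco2b1, Rgs5 and the blood markers. Cell 7 did so for Mfsd2a, Sox17, Podxl and Gkn3, and cell 8 for the fibroblast markers. Smaller gaps put cell 4 apart for Egfl7 (0.720), Pltp (0.685), Slco1a4 (0.677), Palmd (0.580) and Itm2a (0.520). The gap put cell 7 apart for the sum of Sox17 and Sox18 (0.908), Sox18 (0.830), Abcb1a (0.802), Arap3 (0.702), Ly6c1 (0.648), Ifitm3 (0.634), Arhgap31 (0.603), Cd97 (0.603), Slc2a1 (0.553), Tjp1 (0.543), Klf4 (0.540) and the other endothelial genes (0.522). Spock2 was apart in cell 6 (0.645), oligodendrocyte markers in cell 5 (0.985), and ependymal and tanycyte markers (0.969) and astrocyte markers (0.854) in cell 8. Many of these genes share the cells they were detected in, so the gaps are not independent.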

How the results depend on the processing

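The count of 15 members above the other 7 cells in both cells 4 and 7 was 15 to 16 when any 1 of those 7 cells was left out, and 23 when cell 4 alone was set against them. In cell 4 and cell 7, 17 and 13 members were detected when the 10 shared members were left out. Among the remaining alternatives for the detected members, the count ran from 18 to 27 in cell 4 and from 19 to 21 in cell 7. The summed level in cell 4, 196 per 10000, was 253 without mitochondrial genes in the total, 281 without globin genes, 139 for the 23 members and 144 without Itm2a. It was 127 for the 23 members in cell 7 and 156 without Ly6c1. Per 1000 spike-in molecules the sums were 120 in cell 4 and 64.6 in cell 7, a different unit. Depth limits all counts of 0, above all in cells 1 and 6. No paired analysis was possible because all 9 cells carry 1 label and form 1 group.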

Other observations

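Of the 23528 symbols, 27 were at 0 outside cells 4 and 7 while both of these held at least 2 molecules. Of these 27, 8 were members, 3 belonged to the other lists and 16 to no list. Id3, an inhibitor of helix-loop-helix factors, had 6 molecules in cell 4 and 4 in cell 7. Igfbp7, a secreted binding protein of insulin-like growth factors, had 7 in cell 4 and 3 in cell 7, and Kmt2b, a histone methyltransferase gene, had 5 in each. Tpm4, a tropomyosin, had 4 in cell 4 and 3 in cell 7, and Anxa3, an annexin, had 4 and 2 in these cells. Lgals9, a galectin, had 6 in cell 4 and 2 in cell 7. Tmem88, a regulator of Wnt signalling, had 3 and 2, and BC028528 had 3 in each. Arap3, Arhgap31 and Cd97, which encode regulators of small GTPases and an adhesion receptor, had 2 each in cell 4 and 4, 3 and 3 in cell 7. Bst2, an interferon-induced membrane protein, had 2 in each cell. Genes chosen in this way differ between the cells by construction.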
